A study of Mus musculus with 4 samples.

Results

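The 38 genes described here encode the machinery with which a cell copies its DNA: the origin licensing factors and the replicative helicase, the polymerases with their clamp and clamp loader, the enzymes that supply deoxynucleotides, the factors that protect and repair the fork, the proteins that copy chromatin and DNA methylation, and the cyclin and E2F factors of the G1 to S transition. They were chosen by symbol, and all 38 were found among the 32286 features of the series. They were measured in 10x Genomics single-cell RNA libraries of live ZsGreen-positive cells sorted from the operated hemisphere of mouse brains 3 days after surgery. A female stroke pool and a male stroke pool, in which the right middle cerebral artery had been tied off for good (pMCAO), were set against a female sham pool and a male sham pool, which had the surgery without the ligation. Every mouse, sham mice included, carried Tmem119-2A-CreERT2;Ai6, in which the inducible Cre recombinase is made from the Tmem119 locus and switches on the green reporter of Ai6, so a cell is labelled where that microglial gene was active. Each of the 4 pools combined 4 mice, so no combination of sex and surgery had a replicate and the spread between mice is not known. Age and the induction of Cre are not given in the sources used here.

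Microglia are the resident macrophages of the brain. They renew slowly at rest and are known to divide after injury. The transition into S phase is driven by E2F transcription factors, which are held back by pocket proteins such as Rb until cyclin D and cyclin E kinases release them, and much of the replication machinery is transcribed in that wave. Genes for mitosis, such as Top2a, Ccnb1 and Mki67, follow later in the cycle, so the pair of lists marks earlier and later parts of the cycle, and a cell can carry both.

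After quality control 4982 female stroke, 4007 female sham, 4099 male stroke and 4957 male sham cells were kept, from deposited totals of 66072270, 29581392, 52733857 and 40970923 unique molecular identifiers (UMIs, each counting a captured RNA molecule) in the same order. The lowest UMI count of a deposited barcode was 4198 in male sham and 500 or 501 in the others, and 14.0%, 9.21%, 15.1% and 0.84% of the barcodes in the same order were over the mitochondrial limit. Any pair of pools shared 3 to 9 barcodes. Clusters were named from markers, with the cell cycle genes of the lists kept out of the clustering, and 3505 female stroke, 3185 female sham, 3263 male stroke and 4026 male sham cells were microglia-like. All 10 microglia markers were detected in them. Most microglia-like cells of the stroke pools lay in clusters led by Spp1 and Ch25h, by Cst7, by interferon-induced genes, by Ccl4 and Ccl3, or by Top2a and Mki67, and most of those of the sham pools lay in other microglia-like clusters.

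The replication genes were higher in microglia-like cells of the stroke pools nearly throughout. UMIs were summed over the microglia-like cells of each pool, and stroke was set against sham in a model with sex, by the quasi-likelihood test of edgeR, and p-values were adjusted by Benjamini-Hochberg over the 14206 genes tested, with 0.05 as the limit. All 38 genes passed the filter on low counts, 37 rose after stroke and Slbp was not called. None fell, either by edgeR at an unadjusted p under 0.05 or by DESeq2. The same test called 25.03% of all tested genes higher and 25.07% lower. Both stroke pools lay above both sham pools for all 38 genes and for 35.98% of all tested genes. The median log2 change of the 38 was 2.25, with a range of 0.10 to 3.58, while the median of all tested genes was -0.05. Of the 38, 34 changed by at least 1 on the log2 scale, 24 by at least 2 and 3 by at least 3. The test has 1 residual degree of freedom, borrows its spread from all genes, and measures change against the difference between the sexes in their response, not against the spread between mice.

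Members of the origin licensing and helicase group all rose, 9 of 9, with a median log2 change of 2.41. Mcm5, a subunit of the MCM2-7 helicase that unwinds DNA at the fork, had 46.0 CPM (counts per 1000000 counts, on TMM-scaled library totals) in female stroke and 43.9 in male stroke, against 6.58 in female sham and 6.81 in male sham. Its log2 change of 2.75 ± 0.16 (SE) was the largest of this group (adjusted p = 8.2e-21, edgeR's quasi-likelihood test with Benjamini-Hochberg adjustment). Mcm3, another subunit of the same ring, had the smallest, 1.35 ± 0.14 (SE), with 95.9 CPM in female stroke and 91.7 in male stroke, against 34.8 in female sham and 39.01 in male sham. The stroke and sham pools of each did not overlap. Among the other subunits the log2 change was 2.58 for Mcm2, 1.48 for Mcm4, 2.29 for Mcm6 and 1.67 for Mcm7. Cdc6, which loads the helicase onto origins, changed by 2.68, Cdc45 by 2.60 and Gins2 by 2.41, the last pair being cofactors that turn the loaded ring into an active helicase. Cdc6 had 6.82 CPM in female stroke and 7.28 in male stroke, against 0.44 in female sham and 1.88 in male sham, so that its log2 change was 3.89 in females and 1.94 in males, a difference that 1 pool per group cannot test.

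All 7 genes of DNA synthesis at the fork rose, with a median log2 change of 1.80. Prim1, the catalytic primase subunit, changed most, by 2.12 ± 0.18 (SE), with 19.9 CPM in female stroke and 18.8 in male stroke, against 3.73 in female sham and 5.23 in male sham. Rfc2, a subunit of the clamp loader, changed least, by 0.51 ± 0.14 (SE; adjusted p = 0.0019, edgeR with Benjamini-Hochberg adjustment), with 63.8 CPM in female stroke and 63.3 in male stroke, against 42.1 in female sham and 47.6 in male sham. Its call was lost when female stroke was left out (adjusted p = 0.108) or male stroke was left out (adjusted p = 0.061), both by edgeR without a sex term. It was also lost with library totals (log2 change 0.21, adjusted p = 0.188), with cells thinned to equal depth (0.29, adjusted p = 0.102) and with thinned cells under 5 UMIs of the G2 and M list (0.071, adjusted p = 0.758), all by edgeR. The pools of Rfc2 do not overlap, but its sham level was already close to its stroke level. Pcna, the sliding clamp, changed by 1.77, with 182.6 CPM in female stroke and 167.8 in male stroke, against 53.5 in female sham and 49.2 in male sham. Lig1, which seals nicks between Okazaki fragments, changed by 2.10, Rfc4 by 1.88, Pola1, the catalytic subunit of the initiating polymerase, by 1.80, and Fen1, the flap nuclease, by 1.56.

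The nucleotide supply enzymes held the gene with the largest change of the 38. Rrm2, the regulated small subunit of ribonucleotide reductase, had 59.2 CPM in female stroke and 49.995 in male stroke, against 3.77 in female sham and 5.31 in male sham. Its log2 change was 3.58 ± 0.17 (SE; adjusted p = 7.0e-24, edgeR with Benjamini-Hochberg adjustment). Both stroke pools were far above both sham pools. Tk1, the cytosolic thymidine kinase, changed by 3.43, while Dut, which removes dUTP, changed by 2.41 and Rrm1, the large reductase subunit, by 2.24. Tyms, which makes thymidylate, changed least of the 5 genes, by 1.94 ± 0.15 (SE), with 67.2 CPM in female stroke and 61.3 in male stroke, against 13.5 in female sham and 20.3 in male sham. All 5 rose.

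All 9 genes of fork protection, checkpoint and repair rose, with a median log2 change of 2.41. Chek1, the kinase that answers stalled forks, changed by 2.81 ± 0.26 (SE), with 6.95 CPM in female stroke and 8.28 in male stroke, against 1.01 in female sham and 1.15 in male sham. Usp1, a deubiquitinase that acts on Pcna and Fancd2, changed by 0.83 ± 0.14 (SE), with 46.4 CPM in female stroke and 42.6 in male stroke, against 23.4 in female sham and 26.6 in male sham. The change of Usp1 was 0.52 with thinned cells, and 0.062 and not called without those at 5 or more G2 and M UMIs (adjusted p = 0.817, edgeR). Chek1 and Usp1 were the largest and the smallest of the group, and neither had overlapping pools. Exo1, an exonuclease of mismatch and break repair, changed by 2.79, Dtl, which guides destruction of Cdt1 in S phase, by 2.70, and Brip1, a helicase that works with Brca1, by 2.41. Ung, which removes uracil from DNA, changed by 2.25, the checkpoint adaptor Clspn by 2.19 and the fork protection subunit Tipin by 1.15. Tipin had 41.7 CPM in female stroke and 31.7 in male stroke, against 13.9 in female sham and 19.1 in male sham.

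The chromatin group was the most uneven, with 5 of 6 genes higher. Uhrf1, which brings the maintenance methyltransferase to newly copied DNA, had 33.3 CPM in female stroke and 32.6 in male stroke, against 2.28 in female sham and 3.54 in male sham, a log2 change of 3.50 ± 0.19 (SE; adjusted p = 2.4e-22, edgeR with Benjamini-Hochberg adjustment). Dnmt1, that methyltransferase, changed by 1.20. Hells, a chromatin remodeller needed for DNA methylation, changed by 2.62, Esco2, the acetyltransferase that makes cohesin hold sister chromatids, by 2.24, and Wdr76 by 0.67. Slbp binds the stem-loop at the end of replication-dependent histone mRNAs and is needed for their processing. It had 71.4 CPM in female stroke and 73.2 in male stroke, against 65.2 in female sham and 69.6 in male sham. Its pools lie within a narrow range, and its log2 change of 0.10 ± 0.14 (SE) did not pass the test (adjusted p = 0.558, edgeR with Benjamini-Hochberg adjustment). The sign of that change depended on scaling, at -0.19 with plain library totals. Without male sham it was 0.21 and called higher (adjusted p = 0.016, edgeR). Both genes of the G1 to S switch rose: E2f8, a repressor of the E2F family that is itself induced in S phase, by 2.93 ± 0.22 (SE), and Ccne2, a cyclin E, by 2.54 ± 0.18 (SE). E2f8 had 16.0 CPM in female stroke and 13.2 in male stroke, against 1.49 in female sham and 2.31 in male sham. Ccne2 had 25.5 CPM in female stroke and 25.01 in male stroke, against 3.33 in female sham and 5.42 in male sham.

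**Figure D1:**
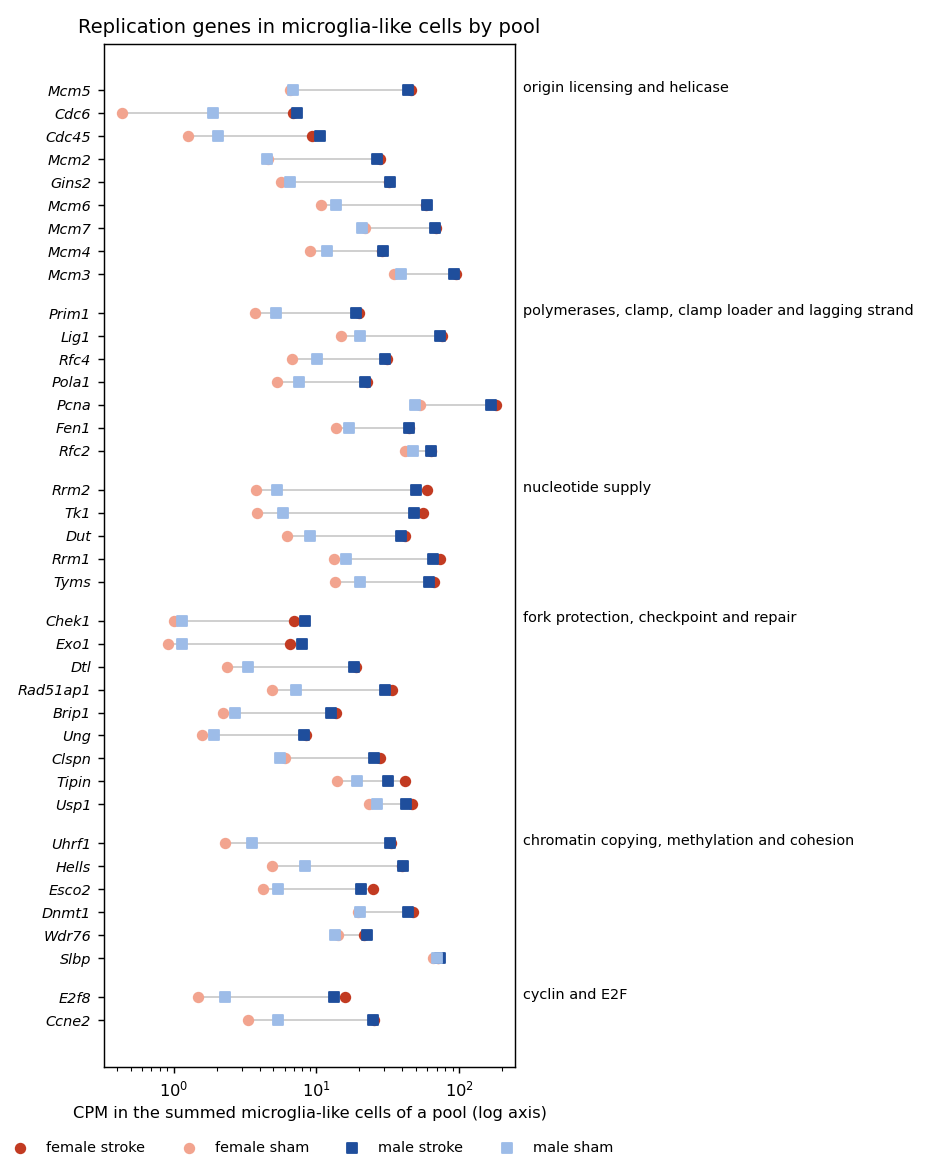
CPM of each of the 38 genes (rows, grouped by role and ordered by log2 change within a role) in the summed microglia-like cells of each pool, on a log axis. The stroke points lie right of the sham points in every row, far apart for Rrm2 (59.2 and 49.995 against 3.77 and 5.31 CPM) and close together for Slbp (71.4 and 73.2 against 65.2 and 69.6 CPM).

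The log2 change was larger in females than in males for 35 of 38 genes, with medians of 2.46 and 2.06, and for 30 of 30 genes of a list of G2 and M genes. With 1 pool per sex and treatment this difference was not tested. The share of all tested genes with a larger change in females was not counted, so whether the counts are particular to these lists is not known. The CPM of 27 of 38 genes were higher in female stroke than in male stroke, and those of 33 of 38 were lower in female sham than in male sham, the pool with the higher UMI minimum. For these counts too the share of all tested genes was not taken.

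The 30 G2 and M genes rose in the same contrast, 30 of 30 by edgeR's quasi-likelihood test, with a median log2 change of 3.69 and a range of 2.78 to 4.30. Only 6 of the 38 replication genes changed by more than the lowest of these. Top2a, the topoisomerase that untangles chromosomes, had 296.8 CPM in female stroke and 252.8 in male stroke, against 18.8 in female sham and 28.4 in male sham. Ccnb1, the mitotic cyclin, had 59.0 CPM in female stroke and 51.8 in male stroke, against 2.72 in female sham and 2.88 in male sham. Mki67, which coats mitotic chromosomes, had 346.6 CPM in female stroke and 292.8 in male stroke, against 14.3 in female sham and 22.2 in male sham. As a summed level, the replication genes held 14.5 UMIs per 10,000 (95% Poisson interval 14.4 to 14.6) of female stroke microglia-like cells, against 5.06 (4.97 to 5.16) of female sham. In males they held 13.6 (13.5 to 13.7) in stroke, against 5.61 (5.52 to 5.71) in sham. The ratio was 2.86 (2.80 to 2.92) in females and 2.42 (2.37 to 2.47) in males. For the G2 and M list it was 14.9 (14.3 to 15.4) in females and 8.49 (8.26 to 8.72) in males. These intervals, and all others of UMIs and cells, cover counting error only. The summed ratio gives most weight to the genes with most UMIs. Slbp, Pcna, Rfc2 and Mcm3 held 25.9% of the UMIs of the 38 genes in female stroke and 26.2% in male stroke, against 43.8% in female sham and 39.6% in male sham.

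Among 91 further genes of replication and its control, 58 rose, 10 fell and 23 were not called by edgeR, with a median log2 change of 0.86. Of all 14206 genes tested, 25.03% were called higher and 25.07% lower. Of 17 other origin genes 11 rose and 2 fell. Mcm10, an initiation factor, changed by 3.73, with 10.6 CPM in female stroke and 10.7 in male stroke, against 0.75 in female sham and 0.85 in male sham, whereas Orc4, a subunit of the origin recognition complex, fell by 0.43 on the log2 scale. Cdt1, the licensing partner of Cdc6, rose by 1.68, and its inhibitor geminin, Gmnn, rose by 2.00. Of 23 other polymerase, clamp loader and RPA genes 19 rose, with Pole, the leading strand polymerase, at 3.12 and Prim2, the partner of Prim1, at -0.00 and not called. Prim2 had 17.3 CPM in female stroke and 15.4 in male stroke, against 18.2 in female sham and 14.7 in male sham. Of 6 other chromatin assembly genes 5 rose, led by Chaf1b of the CAF-1 complex at 2.97, and the histone chaperone Asf1a fell by 0.38. Of 15 other checkpoint and repair genes 8 rose, and Rad1, a subunit of the 9-1-1 clamp, fell by 0.64. Fanci had 206 UMIs in female stroke and 155 in male stroke, against 2 in female sham and 3 in male sham, which gives ratios of 51.1 (95% interval 14.0 to 425) in females and 32.7 (11.0 to 160) in males by library totals.

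The control genes upstream of S phase did not move as a block. Of 12 E2F and pocket protein genes 6 rose, 1 fell and 5 were not called by edgeR. E2f1, an activator of the S phase wave, rose by 2.95, with 22.5 CPM in female stroke and 21.4 in male stroke, against 2.67 in female sham and 3.00 in male sham, and the pocket protein gene Rbl2 fell by 0.45. Of 9 G1 and S cyclin and kinase genes 5 rose and 2 fell, with Ccna2, the S and G2 cyclin, at 4.04, Ccne1, the other cyclin E gene, at 2.93 and the D cyclin Ccnd2 at -1.34. Of 7 genes of CDK inhibitors 4 rose and 2 fell. Of all tested genes 25.03% were called higher and 25.07% lower, so 2 of 9 or 2 of 7 falling is near the share of all genes. Cdkn1a, which encodes p21, rose by 2.03, with 101.9 CPM in female stroke and 108.2 in male stroke, against 22.7 in female sham and 28.9 in male sham. Cdkn2a changed by 2.32, and Cdkn1c, which encodes p57, fell by 1.84. Of a further pair of nucleotide pool genes, Rrm2b fell by 0.91. Samhd1, which breaks down deoxynucleotides, was at 0.25 and not called (adjusted p = 0.126, edgeR with Benjamini-Hochberg adjustment). The calls of Orc4, Asf1a, Rbl2 and Ccnd2 were lost in at least 1 alternative. Without male stroke all 4 were lost, and without female stroke Orc4, Asf1a and Rbl2 were. With thinned cells the change of Ccnd2 was -0.26.

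E2F factors bind DNA words of the form TTTCCCGC or TTTGGCGC, so the stretch of 250 bases before the RefSeq start site (GRCm38.p6) was searched for TTTCCCGC, TTTCGCGC, TTTGCCGC and TTTGGCGC on both strands. RefSeq windows were matched for 30 of the 38 genes, and 9 of 30 (30.0%) held at least 1 such word, namely Mcm5, Mcm6, Mcm7, Cdc6, Pola1, Dtl, Dnmt1, Uhrf1 and Hells. The share was 1 of 26 matched G2 and M genes (3.85%), 15 of 71 matched genes of the other replication pathway lists (21.1%) and 583 of all 27025 genes in the table (2.16%). By role the word was found in 4 of 7 origin and helicase genes, 3 of 5 chromatin genes, 1 of 6 synthesis genes, 1 of 6 fork and checkpoint genes, and 0 of 5 nucleotide supply genes. For comparison, CCAAT was in 63.3% of the 30, 80.8% of the G2 and M genes and 37.5% of all, and TTTGAA, the core of the CHR element known from mitotic promoters, was in 20.0%, 34.6% and 18.3%. A gene with several RefSeq starts was counted if any of its windows held the word. A match describes the letters only. The windows with the word lay within the gene as annotated by GENCODE M21 for Mcm7, Dnmt1, Cdc6 and Uhrf1. Of their 250 bases, 250, 166, 81 and 0 in the same order lay in annotated exons. The Dtl window had 159 bases in exons of Ints7, and the Hells window had 75 in exons of Hells.

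The windows of 4 genes with a word and of Rrm2, which changed most and held none, are shown 5′ to 3′ on the strand of the gene because they put the words beside the genes whose rise is described above. Capitals mark the E2F words on either strand.
Mcm5: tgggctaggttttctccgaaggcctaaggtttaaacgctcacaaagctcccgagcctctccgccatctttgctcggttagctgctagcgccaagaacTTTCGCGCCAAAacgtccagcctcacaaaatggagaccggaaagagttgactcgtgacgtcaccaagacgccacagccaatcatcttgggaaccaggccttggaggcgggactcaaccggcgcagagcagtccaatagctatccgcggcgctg
Mcm6: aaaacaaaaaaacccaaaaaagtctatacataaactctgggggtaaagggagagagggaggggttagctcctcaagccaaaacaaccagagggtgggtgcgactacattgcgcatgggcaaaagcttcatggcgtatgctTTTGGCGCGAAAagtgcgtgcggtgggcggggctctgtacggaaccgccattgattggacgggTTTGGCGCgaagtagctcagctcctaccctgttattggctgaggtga
Pola1: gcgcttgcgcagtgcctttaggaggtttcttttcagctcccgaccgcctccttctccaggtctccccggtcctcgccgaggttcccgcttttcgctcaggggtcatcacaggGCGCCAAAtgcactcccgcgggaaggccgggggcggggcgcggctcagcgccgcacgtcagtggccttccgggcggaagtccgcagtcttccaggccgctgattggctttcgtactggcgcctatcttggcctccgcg
Uhrf1: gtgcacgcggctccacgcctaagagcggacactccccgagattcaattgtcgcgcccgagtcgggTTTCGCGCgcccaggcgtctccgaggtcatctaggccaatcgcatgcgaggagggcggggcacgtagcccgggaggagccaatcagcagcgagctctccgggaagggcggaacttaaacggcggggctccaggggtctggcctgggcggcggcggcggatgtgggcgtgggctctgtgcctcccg
Rrm2: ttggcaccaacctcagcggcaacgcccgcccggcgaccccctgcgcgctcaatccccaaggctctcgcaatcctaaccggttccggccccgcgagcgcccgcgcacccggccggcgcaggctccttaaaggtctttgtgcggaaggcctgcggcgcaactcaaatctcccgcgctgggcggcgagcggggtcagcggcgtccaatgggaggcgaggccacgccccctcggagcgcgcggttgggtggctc
The Mcm5 window is chr8:75109259-75109508 on the plus strand, and its pair of words lies 153 and 149 bases before the start, overlapping by 4 bases on opposite strands. The Mcm6 window is chr1:128359706-128359955 on the minus strand, with such an overlapping pair at 110 and 106 bases and a separate word at 47 bases before the start. The Pola1 window is chrX:93632156-93632405 on the minus strand, with its word at 138 bases. None of these 3 windows touched an exon of the GENCODE M21 annotation. For Mcm5 and Mcm6 the first 20 bases after the RefSeq start were in no GENCODE transcript of the gene. Their GENCODE gene starts, 75109569 and 128359664, lie further downstream, so the distances hold for the RefSeq starts only. The Uhrf1 window is chr17:56304063-56304312 on the plus strand, before the downstream of its RefSeq starts, so that it lies within the annotated gene but outside exons, with its word at 185 bases. The window of its upstream start held none. The Rrm2 window is chr12:24708004-24708253 on the plus strand, of which the last 13 bases lie in an annotated Rrm2 exon. Rrm2 itself spans chromosome 12 from 24708241 to 24714146 and Slbp chromosome 5 from 33634952 to 33652574 in GENCODE M21, and the Slbp window held none of the words either.

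The rise lay in a minority of cells. To compare cells at equal depth, each was thinned to 3000 UMIs, which left out 278 female stroke, 305 female sham, 270 male stroke and 0 male sham microglia-like cells. At least 5 UMIs of the 38 genes were then present in 674 of 3227 cells (20.9%, 95% Clopper-Pearson interval 19.5 to 22.3) of female stroke, against 90 of 2880 (3.12%, 2.52 to 3.83) of female sham. In males they were present in 545 of 2993 cells (18.2%, 16.8 to 19.6) of stroke, against 144 of 4026 (3.58%, 3.02 to 4.20) of sham. Both stroke pools lie above both sham pools, but an exact two-sided permutation test of 2 against 2 pools cannot go below p = 0.333, so no test is given. Without thinning the shares were 40.0% in female stroke and 37.8% in male stroke, against 15.8% in female sham and 14.4% in male sham. Cells with 0 UMIs of the 38 genes were about as frequent in every pool, at 30.1% in female stroke and 33.3% in male stroke, against 33.2% in female sham and 31.1% in male sham. The 10% of cells with the most held 50.6% of the replication UMIs in female stroke and 53.4% in male stroke, against 38.1% in female sham and 40.8% in male sham. Cells at 5 or more held 74.2% of them in female stroke and 71.9% in male stroke, against 20.5% in female sham and 26.0% in male sham. Exactly 4 UMIs, just under the limit, were found in 111 female stroke and 90 male stroke cells, against 87 female sham and 121 male sham cells, and exactly 5 in 90 and 67, against 35 and 45.

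**Figure D2:**
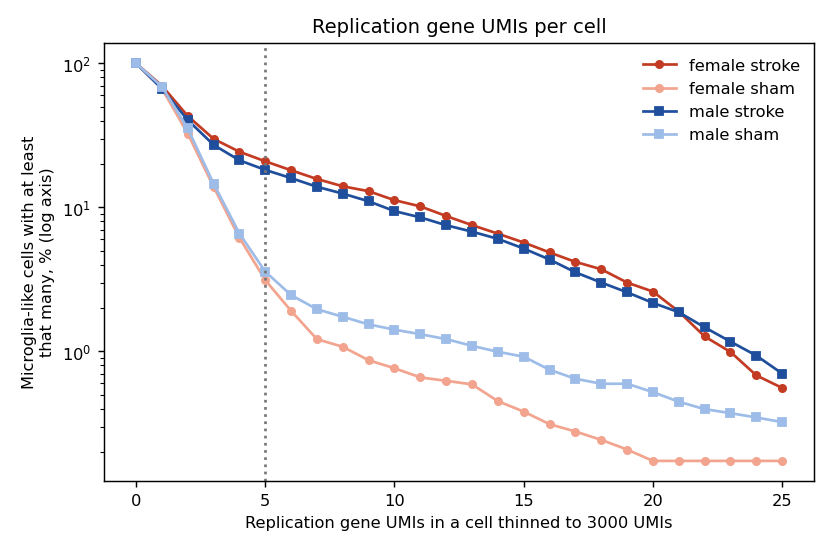
Share of microglia-like cells (vertical, log axis) with at least a given number of UMIs of the 38 genes (horizontal, up to 25) after thinning each cell to 3000 UMIs, by pool. The curves start together and part from 2 UMIs on, and at the dotted line of 5 the stroke pools are at 20.9% and 18.2%, against 3.12% and 3.58% in the sham pools.

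In the stroke pools other cell types with at least 50 cells held fewer of these UMIs than microglia-like cells did. In monocyte-derived macrophage-like cells, which were frequent after stroke alone, the 38 genes made up 5.77 UMIs per 10,000 in female stroke and 5.89 in male stroke, or 0.40 (0.39 to 0.41) and 0.43 (0.42 to 0.45) times the level of microglia-like cells of the same pool. At least 5 UMIs after thinning were present in 37 of 1045 (3.54%) and 22 of 562 (3.91%) of these cells, at a median depth before thinning of 13661 and 13347.5 UMIs, against 9425 and 9523 in the microglia-like cells. Gene by gene, 37 of 38 were lower in macrophage-like than in microglia-like cells in both stroke pools. The share of all genes that were lower there was not counted. The exception was Dnmt1, at 58.2 UMIs per 1000000 in macrophage-like against 43.1 in microglia-like cells of female stroke, and 59.6 against 39.6 in male stroke. Pcna (129 and 136 against 165 and 151), Rfc2 (47.8 and 46.8 against 57.7 and 56.9) and Slbp (48.7 and 50.4 against 64.6 and 65.8) were near the microglia-like level in macrophage-like cells of female and male stroke. Rrm2 was at 4.88 and 5.40 there, against 53.6 and 44.9 in microglia-like cells. These 4 were chosen after their values were seen.

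Choroid plexus-like cells, which are not known to cycle in the adult, had at least 5 UMIs of the list in 8 of 95 cells (8.42%) of female stroke and 0 of 42 of male stroke, against 0 of 105 of female sham and 0 of 537 of male sham. Taken as 3 counts over the number of cells, the counts of 0 allow up to 7.14%, 2.86% and 0.559% of cells in the same order, and the upper Clopper-Pearson limits were 8.41%, 3.45% and 0.685%. Their median depth was 17145 to 22685.5 UMIs over the pools, before thinning. Of the 100 female stroke cells of this class, 11 formed a cluster found in no other pool. Its median depth was 6.19 times that of its pool, and its second class by markers was monocyte-derived macrophage. Doublets were not removed, and how many of the 8 cells lay in that cluster was not counted. Dendritic cell-like cells held 5.10 UMIs per 10,000 in female stroke and 3.97 in male stroke, against 7.61 (6.97 to 8.30) in female sham and 4.38 in male sham, so that those of female sham were above the microglia-like cells of their pool, at 5.06. The few macrophage-like cells of the sham pools, 12 in females and 43 in males, were also above them, at 9.95 and 6.17. Neutrophil-like cells held 5.99 in female stroke and 4.63 in male stroke. Neuron-like cells, abundant in the sham pools alone, held 3.38 in female sham and 3.91 in male sham. Within the stroke microglia-like cells at 5 or more UMIs, 10 markers of monocyte-derived macrophages summed to 0.361 UMIs per 10,000 in both pools, of which 9 and 8 were detected, against 43.5 and 31.8 in macrophage-like cells of the same pools, where all 10 were. In stroke microglia-like cells under 5 UMIs they summed to 0.470 in females and 0.383 in males. Microglia markers summed to 134 and 139 UMIs per 10,000 in cells at 5 or more and 196 and 203 in cells under 5.

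**Figure D3:**
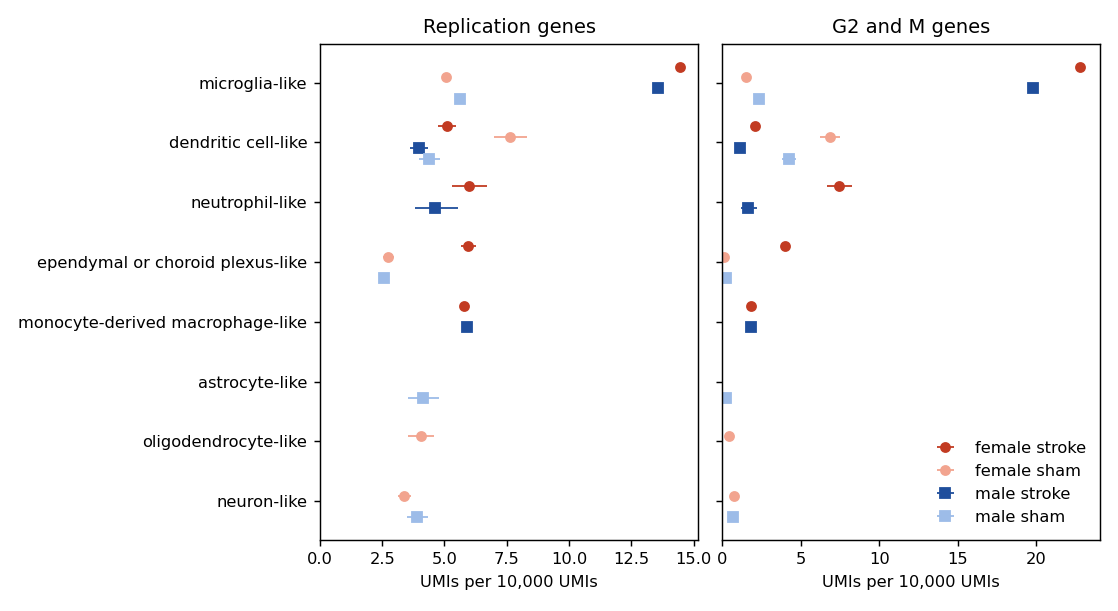
Summed UMIs of the 38 replication genes (left) and the 30 G2 and M genes (right) per 10,000 UMIs, by cell type with at least 50 cells in a pool, with 95% Poisson intervals. Microglia-like cells of the stroke pools stand at 14.5 and 13.6 for replication genes, and all other points lie below 8.

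In the same thinned cells, replication UMIs were split over cells at 5 or more and cells under 5 UMIs of the G2 and M list. Cells under 5 UMIs of a list can still hold some of them. Of female stroke microglia-like cells 9.20% had at least 5 replication UMIs alone, 11.7% had at least 5 of both lists, 9.27% had at least 5 G2 and M UMIs alone and 69.8% had neither. In male stroke these were 9.15%, 9.05%, 9.22% and 72.6%. In female sham they were 2.71%, 0.42%, 0.14% and 96.7%, and in male sham 2.68%, 0.89%, 0.32% and 96.1%. Replication-only cells were 297 in female stroke and 274 in male stroke, against 78 in female sham and 108 in male sham. Depth moved with these ranges. Before thinning the median UMI count was 18491 in female stroke and 17895 in male stroke for cells with both, 11783 and 13791 for replication alone, 13506 and 13639.5 for G2 and M alone, and 8154 and 8214.5 for neither. The part of depth before thinning in the ranges was not tested. The median mitochondrial share differed between stroke and sham, at 4.95% in female stroke and 4.54% in male stroke, against 2.03% in female sham and 1.18% in male sham for cells with neither, and was 4.67% to 5.21% in the other stroke ranges.

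The level of the replication genes followed the G2 and M count of the cell. Cells with 0 G2 and M UMIs held 4.78 replication UMIs per 10,000 (4.60 to 4.98) in female stroke and 4.59 (4.40 to 4.78) in male stroke, against 4.13 (3.99 to 4.27) in female sham and 4.19 (4.07 to 4.32) in male sham. Cells with 1 to 4 held 11.2 in female stroke and 11.7 in male stroke, against 5.61 in female sham and 7.77 in male sham. The order turned round in cells with at least 5, which held 25.7 in female stroke and 23.4 in male stroke, against 51.5 (45.2 to 58.3) in female sham and 50.7 (47.1 to 54.5) in male sham. Those sham values rest on 16 and 49 cells, against 676 and 547 in the stroke pools. The few sham cells with at least 5 G2 and M UMIs thus carried more replication UMIs each than such stroke cells did. After thinning and without every cell with at least 5 G2 and M UMIs, 33 of the 38 genes were still called higher by edgeR, against 16.60% of all 12007 genes tested there, with a median log2 change of 1.55. Rfc2 (0.071), Slbp (-0.18), Tipin (0.34), Usp1 (0.062) and Wdr76 (0.47) were not called there.

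The single genes fell along a range between the replication-only cells and the G2 and M-only cells. For each gene the cell was sorted by the other 37 genes, so that the gene did not place its own cell. In both stroke pools 35 of 38 genes were higher in replication-only than in G2 and M-only cells. Cells were sorted by other genes of the same list, so the sorting favoured this direction and the count is a description. The share of all tested genes was not counted for this or the patterns below. The genes outside the 35 were E2f8, Esco2 and Rrm1. They were higher in replication-only than in G2 and M-only cells in male stroke but not in female stroke. Ccne2 had 62.1 UMIs per 1000000 UMIs in replication-only cells of female stroke and 65.4 of male stroke, and 0 UMIs in the G2 and M-only cells of both. Ung stood at 49.7 and 33.3 and likewise had 0 UMIs in the G2 and M-only cells. Dtl was at 76.8 and 76.5 in replication-only cells, 41.6 and 41.8 in cells with both, and 1.11 and 2.42 in G2 and M-only cells. Hells was at 183 and 153, then 84.4 and 58.2, then 4.43 and 9.59 in the same order of cells. At the other end Esco2 was at 10.1 and 13.4 in replication-only cells, 112 and 101 in cells with both, and 14.4 and 13.1 in G2 and M-only cells. Rrm2, between these ends, was at 64.6 and 63.5, then 209.8 and 218, then 29.1 and 20.1. In both stroke pools 20 genes, Pcna, Rrm2, Tk1 and Tyms among them, were highest in cells with both lists, and 11 genes were highest in replication-only cells. These 11 were Mcm2, Mcm3, Mcm4, Mcm5, Mcm6, Cdc6, Chek1, Dtl, Hells, Slbp and Ung. The remaining 7 differed between the pools. Examples were chosen after their values were seen.

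**Figure D4:**
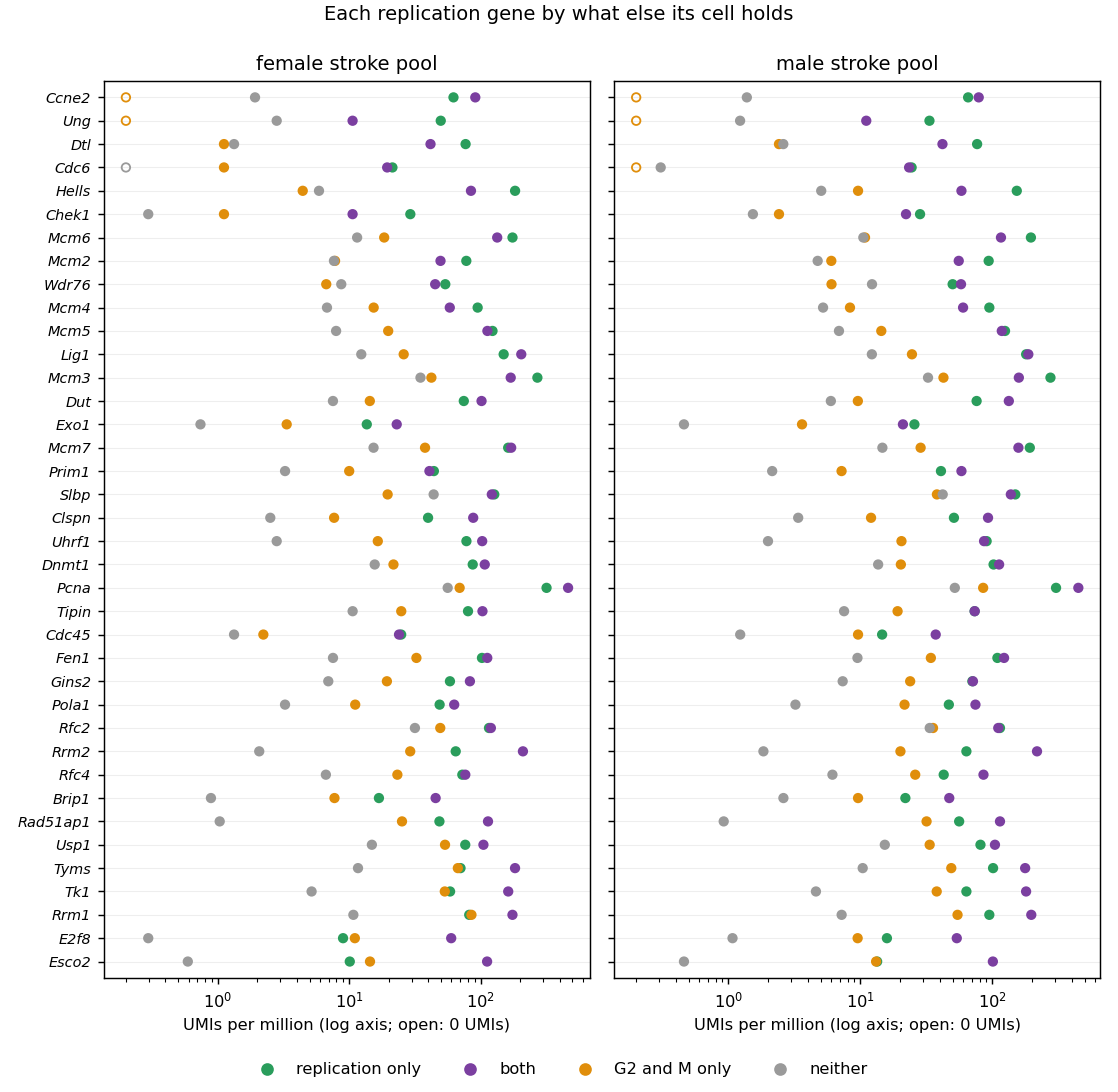
UMIs per 1000000 of each replication gene (rows) in thinned microglia-like cells of the female stroke pool (left) and the male stroke pool (right), with cells sorted by the other 37 genes and by the G2 and M list at 5 UMIs each. Rows run from genes nearly absent from G2 and M-only cells, such as Ccne2 and Ung (0 UMIs, open), to Esco2, which was at 10.1 and 13.4 in replication-only and 14.4 and 13.1 in G2 and M-only cells.

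In cells under 5 UMIs of both lists the 38 genes were divided. Slbp was there at 43.9 UMIs per 1000000 in female stroke and 42.0 in male stroke, against 68.7 in female sham and 71.4 in male sham. In the replication-only cells it was at 127 in female stroke and 149 in male stroke, against 127 in female sham and 122 in male sham. Slbp was thus lower after stroke in cells under both limits, while 42.9% of its thinned UMIs in female stroke and 42.6% in male stroke lay in cells with at least 5 UMIs of the other genes, against 5.56% in female sham and 8.05% in male sham. Rfc2 was at 31.6 and 33.5 in neither-range cells of female and male stroke, against 44.4 and 47.8 in those of female and male sham, and Usp1 at 14.9 and 15.3, against 23.5 and 24.04. For these 3 genes the counting intervals of stroke and sham were apart in both sexes, and for 4 genes, Mcm5, Rrm2, Tk1 and Uhrf1, they were apart in the other direction. Of the 14206 tested genes 17.58% were lower by this measure in such cells and 6.216% higher, so that lower values like those of Slbp were common among all genes. Intervals overlapped in both sexes for 22 of the 38 genes and differed between the sexes for 9. By the level alone 12 of the 38 were lower and 17 higher in stroke in both sexes, against 57.79% lower and 19.47% higher of all tested genes, for which cells were placed by all 38 genes. These are values of 2 pools each, with no test.

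The microglia-like clusters differed in how many cells with at least 5 replication UMIs they held. Cluster 9 is led by Top2a, Mki67 and other cell cycle genes. Only the 159 listed genes were kept out of the clustering, so its share is a description: 74.6% of 453 female stroke cells and 64.7% of 368 male stroke cells had at least 5 replication UMIs, and 94.9% and 95.1% had at least 5 G2 and M UMIs. Cluster 0, led by Spp1 and Ch25h, held 191 of 612 such cells (31.2%, 27.6 to 35.05) in female stroke and 181 of 572 (31.6%, 27.8 to 35.6) in male stroke, of which 42 and 40 were also at 5 in the G2 and M list. The interferon-led cluster 3 had 11.6% in female stroke and 8.59% in male stroke, the Cst7-led cluster 2 had 7.04% and 10.0%, and the Ccl4-led cluster 6 had 5.91% and 4.67%. Cluster 0 had deeper cells than cluster 2. Its median was 14381 UMIs in female stroke and 16113.5 in male stroke before thinning, against 8479 and 9758 in cluster 2. Cluster 9 was deeper still, at 18449 and 17083. The part of depth in the differences between clusters was not tested. Neither sham pool reached 50 cells in cluster 0 or cluster 9. Their fullest clusters were cluster 10 of female sham, with 2.96% (29 of 980 cells), and cluster 5 of male sham, with 2.20% (40 of 1817 cells). Higher shares lay in small sham clusters, at 10.8% (7 of 65 cells) in cluster 2 of female sham and 9.09% (18 of 198 cells) in cluster 6 of male sham, so that in cluster 2 female stroke, at 7.04%, was not above female sham, nor in cluster 6 male stroke, at 4.67%, above male sham. Stroke was also below sham in cluster 4 of females (1.98% against 2.66%) and males (0 of 138 cells against 1.86%). The same held for cluster 10 of females (2.86% against 2.96%) and cluster 12 of males (0.68% against 1.36%). It was above sham in clusters 3 and 5 of both sexes, cluster 6 of females and cluster 12 of females. In clusters 4, 5, 10 and 12 the stroke counts were only 0 to 5 cells. Many sham cells just passed the limit. Over all microglia-like cells at 5 or more, 35 of 90 in female sham and 45 of 144 in male sham held exactly 5. In stroke these were 90 of 674 in females and 67 of 545 in males.

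**Figure D5:**
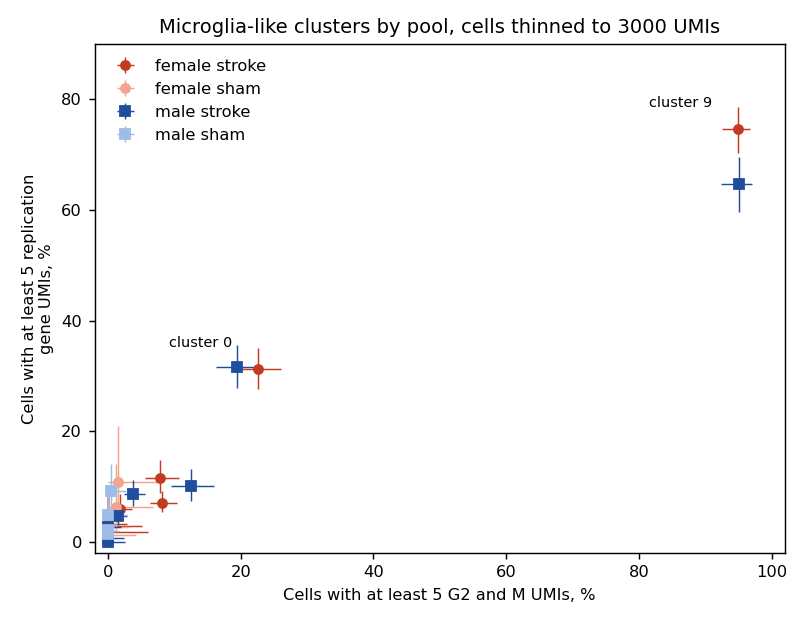
Microglia-like clusters with at least 50 thinned cells in a pool, by the share of cells with at least 5 G2 and M UMIs (horizontal) and at least 5 replication UMIs (vertical), with 95% Clopper-Pearson intervals. Cluster 9 stands at 74.6% and 64.7% on the vertical axis, cluster 0 at 31.2% and 31.6%, and all others are below 12%.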

How the data were processed

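The deposited files hold counts of unique molecular identifiers per gene and barcode for each pool. Alignment was to mm10 with Cell Ranger 7.1.0 as listed in the submitters' processing notes, but cellranger 6.1.2 stands in the matrices, per the file headers. The treatment of intronic reads is not given there. The members and lists were chosen with earlier results of these data known. Of 20437 barcodes, 18045 passed limits of 500 genes, 1000 UMIs and 10% mitochondrial UMIs, and doublets were not removed. Counts were scaled to 10000 per cell, reduced to 2000 variable genes without the 159 listed cell cycle genes and to 30 principal components, and clustered from 15 neighbours by the Leiden method at resolution 0.8 (scanpy 1.11.5, leidenalg 0.10.2). Clusters were named "-like" from at least 3 markers of a class present in at least 25% of cells. Counts were summed per pool over microglia-like cells and tested with edgeR 4.0.16 (R 4.3.3; sex and treatment, TMM scaling, default filter, two-sided, Benjamini-Hochberg at 0.05). The spread carried 50.2 prior and 1 residual degrees of freedom. SE is the absolute log2 change over the square root of F. The test was checked on simulated counts. CPM are counts over the TMM-scaled library total, and levels by cell type or range are UMIs over plain totals. Thinning drew 3000 UMIs per cell without replacement, once. Genes were named by role, as those with the largest and smallest change and any not called, plus Top2a, Ccnb1, Mki67, Ccne1, E2f1, Cdkn1a, Cdt1 and Gmnn. Others carry only a log2 change or are said to be chosen after their values were seen. Depth limits the shares: a pool held 2880 to 4026 thinned microglia-like cells. Alternatives were DESeq2 1.42.0, library totals, other filters, clusterings, thinning depths and limits, and each pool left out.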

Additional observations from a re-analysis of the deposited data

Results flagged for a closer look

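Prim2, which encodes the large primase subunit, had changes of opposite sign in the sexes, with a log2 difference between stroke and sham of -0.072 in females and 0.067 in males. The difference between the sexes was not tested, since each combination of sex and treatment was 1 pool. No other gene named in the report had opposite signs.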

How the results depend on the processing

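No paired analysis was possible because the labels give no replicate numbers and each combination of sex and treatment is 1 pool, beyond the sex term of the fit, which sets stroke against sham within each sex. Of the 38 genes, 37 were called higher with DESeq2, without a filter on low counts, without a sex term, at the male sham UMI minimum of 4198 in all pools, at a mitochondrial limit of 5% and with cell cycle genes in the clustering. It was 36 with library totals and with thinned cells, where Rfc2 was lost, 33 without cells with at least 5 G2 and M UMIs, and 36 to 38 when a pool was left out. None was called lower in any of these. With library totals the median of all genes was -0.34, a shift of the scale itself, and the median of the 38 was 1.95. Over all tested genes edgeR called 3556 higher and 3561 lower, DESeq2 2777 and 1590, and edgeR with library totals 2293 and 6360. A mitochondrial limit of 5% gave 2939 and 2599, and thinned cells gave 2373 and 1953. Thinned cells without those with at least 5 G2 and M UMIs gave 1993 and 1484. The change of Slbp turned to -0.19 with library totals and -0.087 with thinned cells. It was -0.18 with thinned cells without those with at least 5 G2 and M UMIs. The change of Samhd1 turned to -0.043 with library totals. Prim2, near 0, turned to 0.047 with DESeq2, 0.031 without a filter, 0.033 at the common UMI minimum, 0.096 at the 5% limit and 0.0145 with cell cycle genes in the clustering, and lay between -0.093 (without male sham) and 0.149 (without female sham) when a pool was left out, at 0.082 without male stroke. The share of cells moved with its limit. At 3 UMIs it was 29.9% in female stroke and 27.2% in male stroke, against 13.9% in female sham and 14.6% in male sham. At 10 UMIs it was 11.2% and 9.42%, against 0.764% and 1.42%. Thinned to 2000 UMIs it was 15.3% and 13.3%, against 1.30% and 1.94%. Not thinned, an alternative chosen after seeing the data, it was 40.0% and 37.8%, against 15.8% and 14.4%. The summed level in microglia-like cells was 14.8 UMIs per 10,000 in female stroke and 13.9 in male stroke at the common UMI minimum, and 15.3 and 13.5 at the 5% mitochondrial limit. In macrophage-like cells it was 5.29 in female stroke at the 5% limit, and 5.51 in female stroke and 5.61 in male stroke with cell cycle genes in the clustering. The cause of these shifts was not tested beyond the settings named. The pools of 4 mice, the deeper cutoff of male sham and the higher mitochondrial share of the stroke pools limit every comparison.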
